A study of Mus musculus with 4 samples.

Results

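The serpins are a superfamily of protease inhibitors, and 62 of the 23361 genes in the FPKM table carry a serpin symbol, that is "Serpin" followed by a clade letter from a to i, a number and, in some, a further letter. All 62 were taken as members. FPKM, fragments per kilobase of transcript, is scaled to transcript length and to the mapped fragments of a library, so that levels of different genes can be set side by side. The RNA came from cells that the study describes as those of hair pegs, in the back skin at embryonic day E17.5. Hair pegs are the downgrowths of embryonic mouse epidermis that go on to form hair follicles. Nfatc1+ cells came from Nfatc1-CreER::Rosa-stop-tdTomato::K14-H2BGFP embryos and Shh+ cells from Shh-CreER::Rosa-stop-tdTomato::K14-H2BGFP embryos. In both, tamoxifen followed at E15.5 and the cells sorted were those carrying both GFP, a nuclear label of keratin 14 epithelium, and the red tdTomato, with 2 libraries a group. The red label is switched on in cells that express the CreER recombinase at the time of tamoxifen and is inherited by their descendants, so a sorted cell need not still express Nfatc1 or Shh.

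The Nfatc1+ libraries came from whole skin that spent 16 minutes in 0.25% trypsin, at 37 °C. For the Shh+ libraries the skin was first held for 1 hour in dispase, at 0.4 mg/ml. The epidermis was then taken off, and with it, by the study's account, the placodes and hair germs. The dermis that was left, described as holding hair pegs only, had 10 minutes in 0.25% trypsin. No removal of epidermis is described for the Nfatc1+ libraries. A difference between the populations and a difference between these preparations, in enzymes, times or tissue kept, thus cannot be told apart. Whether replicate libraries were made from different animals is not given in the sources used here, so every p below rests on a spread between libraries that may be technical only. The genes that marked the cells followed the labels. Shh was at 10.5 and 11.7 FPKM in the Nfatc1+ libraries and at 143.9 and 144.7 FPKM in the Shh+ libraries, and Nfatc1 was at 112.3 and 116.1 FPKM against 25.3 and 20.1 FPKM. The epithelial markers fixed as a list, keratins and junction proteins among them, were above 0 in all 4 libraries. They were not level between the groups, with 7 of 10 higher in the Nfatc1+ group and 1 in the Shh+ group, summed levels of 10480 and 10250 FPKM against 7075 and 6881 FPKM, and a median log2 fold change of −0.61. Their part in the serpins higher in the Nfatc1+ group, Serpinb5 among them, was not tested.

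A serpin presents an exposed stretch, the reactive centre loop, as bait to a protease. When the protease cuts the loop, the serpin folds it into its own body and traps the enzyme, so that inhibitor and protease are both used up. The letters name clades. Clade A holds secreted inhibitors related to antitrypsin and antichymotrypsin, clade B the mostly intracellular ovalbumin-like inhibitors that are rich in epithelia and blood cells, clade C antithrombin, clade D heparin cofactor, clade E protease nexin and its relatives, clade F pigment epithelium-derived factor and antiplasmin, clade G the complement C1 inhibitor, clade H a collagen chaperone that inhibits no protease, and clade I neuroserpin and its relative. Mice carry many more copies of some clade A and clade B genes than humans do, in clusters of neighbouring genes.

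Neighbouring genes differed in opposite directions among the Serpina3 genes, mouse copies related to the single human antichymotrypsin gene, so the stretch of their last coding exon that matches the reactive centre loop region is shown for the 4 neighbouring copies that were measured well enough to test. Each runs over 96 bases on the plus strand of chromosome 12 of GRCm38, from chr12:104241066-104241161 in Serpina3g, chr12:104253505-104253600 in Serpina3h, chr12:104268474-104268569 in Serpina3i and chr12:104319680-104319775 in Serpina3j, in the GENCODE M21 models. Capitals mark the bases that differ from Serpina3i.
Serpina3g: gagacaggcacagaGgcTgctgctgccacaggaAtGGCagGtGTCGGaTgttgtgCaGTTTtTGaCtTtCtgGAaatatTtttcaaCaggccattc
Serpina3h: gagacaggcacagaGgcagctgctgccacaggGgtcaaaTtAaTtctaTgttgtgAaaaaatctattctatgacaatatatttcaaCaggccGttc
Serpina3i: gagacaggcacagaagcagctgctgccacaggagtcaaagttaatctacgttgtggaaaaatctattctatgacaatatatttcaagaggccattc
Serpina3j: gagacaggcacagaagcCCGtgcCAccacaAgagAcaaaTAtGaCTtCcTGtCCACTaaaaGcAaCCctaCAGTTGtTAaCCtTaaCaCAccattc
Serpina3h and Serpina3i differed at 9 of the 96 bases, Serpina3g and Serpina3i at 27, and Serpina3i and Serpina3j at 38. The first 14 bases, at the start of the conserved hinge of the loop, were the same in all 4 copies, and differences were found from base 15 on, within the hinge codons as well as further along. Serpina3h is annotated as a transcribed pseudogene by both GENCODE and RefSeq, so its stretch is shown as the counterpart of the others and not as coding sequence in use.

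Of the 62 serpins, 17 were listed at 0 FPKM in all 4 libraries and a further 19 did not reach the mean of 0.5 FPKM that was asked for before a test. The other 26 were tested with limma on log2(FPKM + 0.5) together with all 12750 genes that reached that mean, with Benjamini-Hochberg adjustment over all of them and a call at an adjusted p under 0.05. Log2 fold changes are differences on that scale, Shh+ minus Nfatc1+, so that the change of a low gene is understated. A fold is the ratio of the mean FPKM of the groups. Of the 26, 8 were higher in the Shh+ group, against 18.1% of all tested genes, 6 were higher in the Nfatc1+ group, against 18.9%, and 12 were not called. In either direction that was 53.8% of the tested serpins and 37% of all tested genes. With a log2 fold change of at least 1 in either direction, a 2-fold difference of FPKM + 0.5, asked for as well, 6 serpins were higher in the Shh+ group and 3 in the Nfatc1+ group, where 4.77% and 5.81% of all tested genes were, and 10.6% in either direction. By the ratio of mean FPKM, 7 and 4 called serpins differed by at least 2-fold, with Serpinb6b and Serpinb8 added. The 2 libraries of 1 group lay wholly above those of the other for 23 of the 26, against 70.7% of all tested genes. The median log2 fold change of the 26 was −0.07, and that of all tested genes was 0.00. These counts describe the genes that passed the mean, and 6 of the 26 passed it although 1 of the groups was under 0.5 FPKM, namely Serpina3b, Serpina9 and Serpinb1a, low in the Shh+ group, and Serpina3j, Serpinb9 and Serpinc1, low in the Nfatc1+ group.

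**Figure D1:**
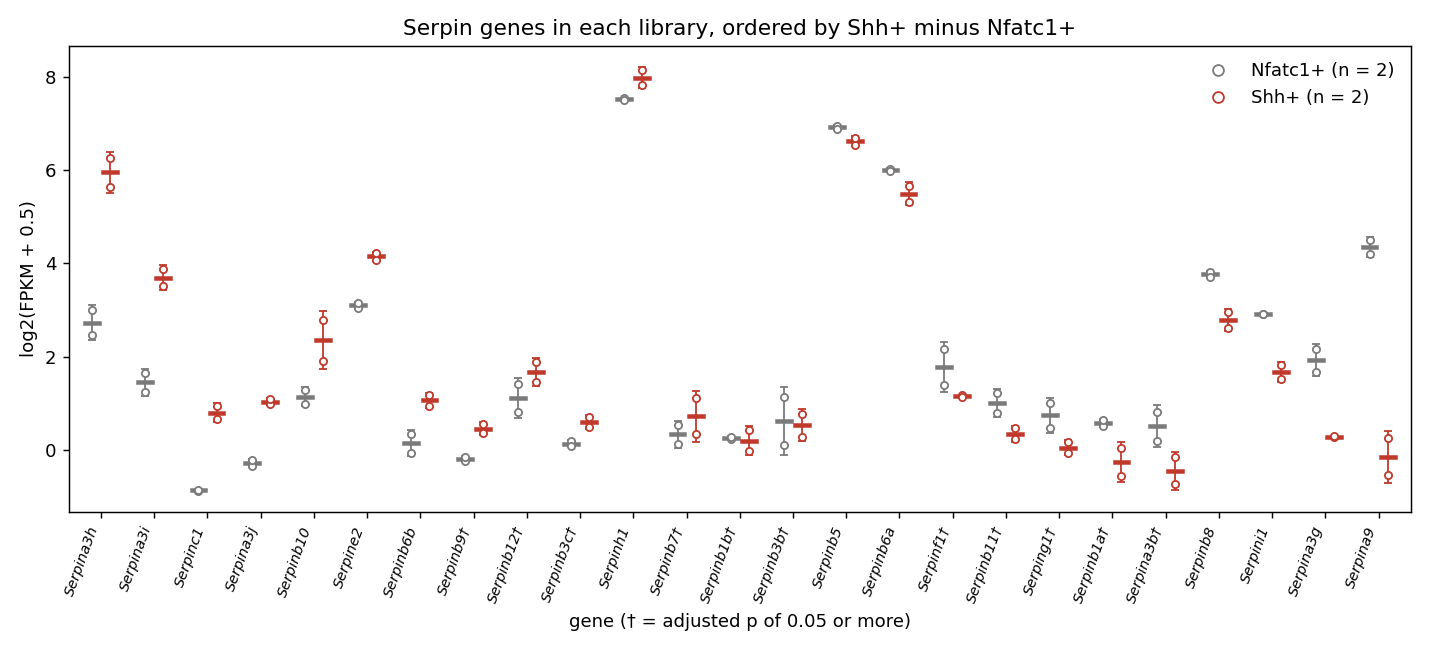
Level of the tested serpin genes reported here, 25 in all, in each library as log2(FPKM + 0.5), with genes ordered from the highest to the lowest fold change of Shh+ over Nfatc1+. Open points are libraries, thick bars are group means and thin bars are the SD of 2 libraries; a dagger marks the genes that were not called, and Serpina3h at the left and Serpina9 at the right have the widest gaps between the groups.

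Together the members summed to 465.1 and 450.8 FPKM in the Nfatc1+ libraries and to 561.3 and 502.6 FPKM in the Shh+ libraries. These sums include Serpina3h, annotated as a transcribed pseudogene, without which the sums of the groups overlapped. Serpinh1 and Serpinb5 together held from 66% to 67.3% of the summed serpin FPKM in each library. Below them the order of levels differed. In the Nfatc1+ group the next genes were Serpinb6a at a mean of 64.1 FPKM, Serpina9 at 20.1 and Serpinb8 at 13.1 FPKM, and in the Shh+ group they were Serpina3h at 63.2 FPKM, Serpinb6a at 45.1 and Serpine2 at 17.3 FPKM. In the Shh+ group the means of Serpina3h and Serpinb6a were closer together than the SD of Serpina3h, which was 19.3 FPKM (n = 2), so their order is not settled. Between 33 and 39 members were above 0 FPKM in a library, with the fewest in Shh+ replicate 2, which was also the least deeply sequenced, at 0.575 of the depth of Nfatc1+ replicate 1 by the spacing of its low values.

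**Figure D2:**
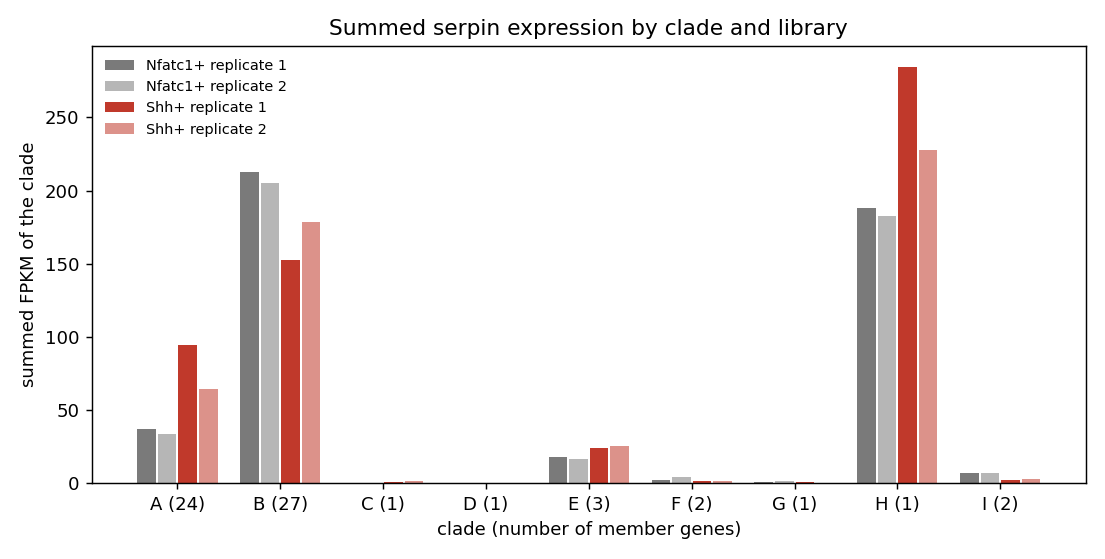
Summed FPKM of the member genes of each clade in the 4 libraries, with the number of member genes in brackets. Clade B and clade H carry most of the serpin expression in every library, and clade A is at 94.3 and 64.5 FPKM in the Shh+ libraries against 36.8 and 33.5 FPKM in the Nfatc1+ libraries. Without Serpina3h, annotated as a transcribed pseudogene, clade A is lower in both Shh+ libraries than in either Nfatc1+ library.

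Clade A, the secreted antitrypsin-like genes, had 24 members, of which 9 were at 0 throughout and 6 were tested. Of these, 3 were higher in the Shh+ group, 2 were higher in the Nfatc1+ group and 1 was not called. The called genes were 83.3% of those 6, against 37% of all tested genes. The clade's summed level was 36.8 and 33.5 FPKM in the Nfatc1+ group and 94.3 and 64.5 FPKM in the Shh+ group, and the genes behind these sums were not the same. In the Nfatc1+ libraries Serpina9 alone held 60.5% and 53.5% of it. In the Shh+ libraries Serpina9 held 0.193% and 1.06%, and Serpina3h with Serpina3i held 96.7% and 93.8%, where they had held 18.7% and 30.2% in the Nfatc1+ libraries. Serpina3h, annotated as a transcribed pseudogene, made up 76.9 and 49.6 FPKM of the Shh+ sums and 5 and 7.46 FPKM of the Nfatc1+ sums. Without Serpina3h the clade's sum was lower in both Shh+ libraries than in either Nfatc1+ library.

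Serpina9, known in humans as a product of germinal centre B cells, was at 22.3 and 17.9 FPKM in the Nfatc1+ libraries and at 0.182 and 0.683 FPKM in the Shh+ libraries. The lowest Nfatc1+ library was thus far above the highest Shh+ library, and the mean was 46.5-fold higher in the Nfatc1+ group. That ratio rests on low Shh+ values, and was 29.4-fold without Shh+ replicate 1 and 111-fold without Shh+ replicate 2. The log2 fold change was −4.51 (SE 0.26, adjusted p = 3.3e-05 by limma), the largest in size of the tested serpins, and it ran from −3.89 to −5.42 with 1 or 0.1 in place of 0.5 added before the logarithm. No 100-base stretch of the 1 transcript searched was shared with another annotated gene. The immune marker list (macrophage, T cell and mast cell genes) was low in all 4 libraries, with a summed level from 13.1 to 19 FPKM in the Nfatc1+ group and from 8.84 to 14 FPKM in the Shh+ group, 1 of its 5 tested genes called, and Cd3e at 0 in all libraries. This list holds no gene particular to B cells, and its part in the level of Serpina9 was not tested.

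Its neighbour Serpina11, which lies 6646 bases away on the same strand, went the same way at a much lower level. Serpina11 was at 0.793 and 0.784 FPKM in the Nfatc1+ libraries and was listed at 0 in both Shh+ libraries. With a mean under 0.5 FPKM it was not tested, and of its exon bases 45.8% also belong to the gene model Gm28577, which overlaps Serpina9 by 2.02% of exon bases as well. Reads in these overlaps cannot be told apart by gene.

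Serpina3g, which in mice has been described as an inhibitor of lysosomal cathepsins, was at 3.98 and 2.69 FPKM in the Nfatc1+ libraries and at 0.699 and 0.724 FPKM in the Shh+ libraries. The groups did not overlap and the mean was 4.69-fold higher in the Nfatc1+ group (log2 fold change −1.64, SE 0.21, adjusted p = 0.00117 by limma). The next gene along the chromosome, 5956 bases on, went the other way. Serpina3h, the pseudogene copy, was at 5 and 7.46 FPKM in the Nfatc1+ libraries and at 76.9 and 49.6 FPKM in the Shh+ libraries. It was 10.1-fold higher in the Shh+ group (log2 fold change 3.23, SE 0.23, adjusted p = 8.51e-05), and no other tested serpin had a larger rise in the Shh+ group on the log2 scale.

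Serpina3i follows after 8639 bases. It was at 1.86 and 2.65 FPKM in the Nfatc1+ libraries and at 14.2 and 10.9 FPKM in the Shh+ libraries, 5.57-fold higher in the Shh+ group (log2 fold change 2.25, SE 0.19, adjusted p = 0.000155 by limma). Serpina3j, a further 31212 bases on by the whole RefSeq gene span, was lower than both, at 0.281 and 0.353 FPKM against 1.46 and 1.63 FPKM, and was 4.88-fold higher in the Shh+ group (log2 fold change 1.32, SE 0.21, adjusted p = 0.00309). The 3 genes that were higher in the Shh+ group are thus consecutive among the serpins of the cluster, and each had both Shh+ libraries above both Nfatc1+ libraries. Since these genes are close copies, reads could be divided wrongly between them. The 100-base stretches of 1 transcript per gene were searched for exact matches in other genes. Such matches were found for 4.64% of them in Serpina3g, 4.21% in Serpina3h, 2.33% in Serpina3i and none in Serpina3j. Near matches were not counted, and the Serpina3h transcript searched was not the 1 from which its loop stretch was taken.

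The other Serpina3 genes were low. Serpina3b was at a mean of 0.946 ± 0.445 FPKM in the Nfatc1+ group and 0.244 ± 0.208 FPKM in the Shh+ group (SD, n = 2) and was not called (adjusted p = 0.0596 by limma). Serpina3a, Serpina3c, Serpina3f, Serpina3m and Serpina3n did not reach the mean asked for, with at most 0.457 FPKM in any library, and Serpina3k was at 0 in all of them. Of the Serpina1 genes, the mouse antitrypsins, Serpina1b gave 0.068 FPKM in 1 library and Serpina1a, Serpina1c, Serpina1d, Serpina1e and Serpina1f were listed at 0. Serpina6, the corticosteroid carrier, Serpina7, the thyroxine carrier, and Serpina10 were also at 0, and Serpina5 and Serpina12 reached at most 0.215 FPKM.

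**Figure D3:**
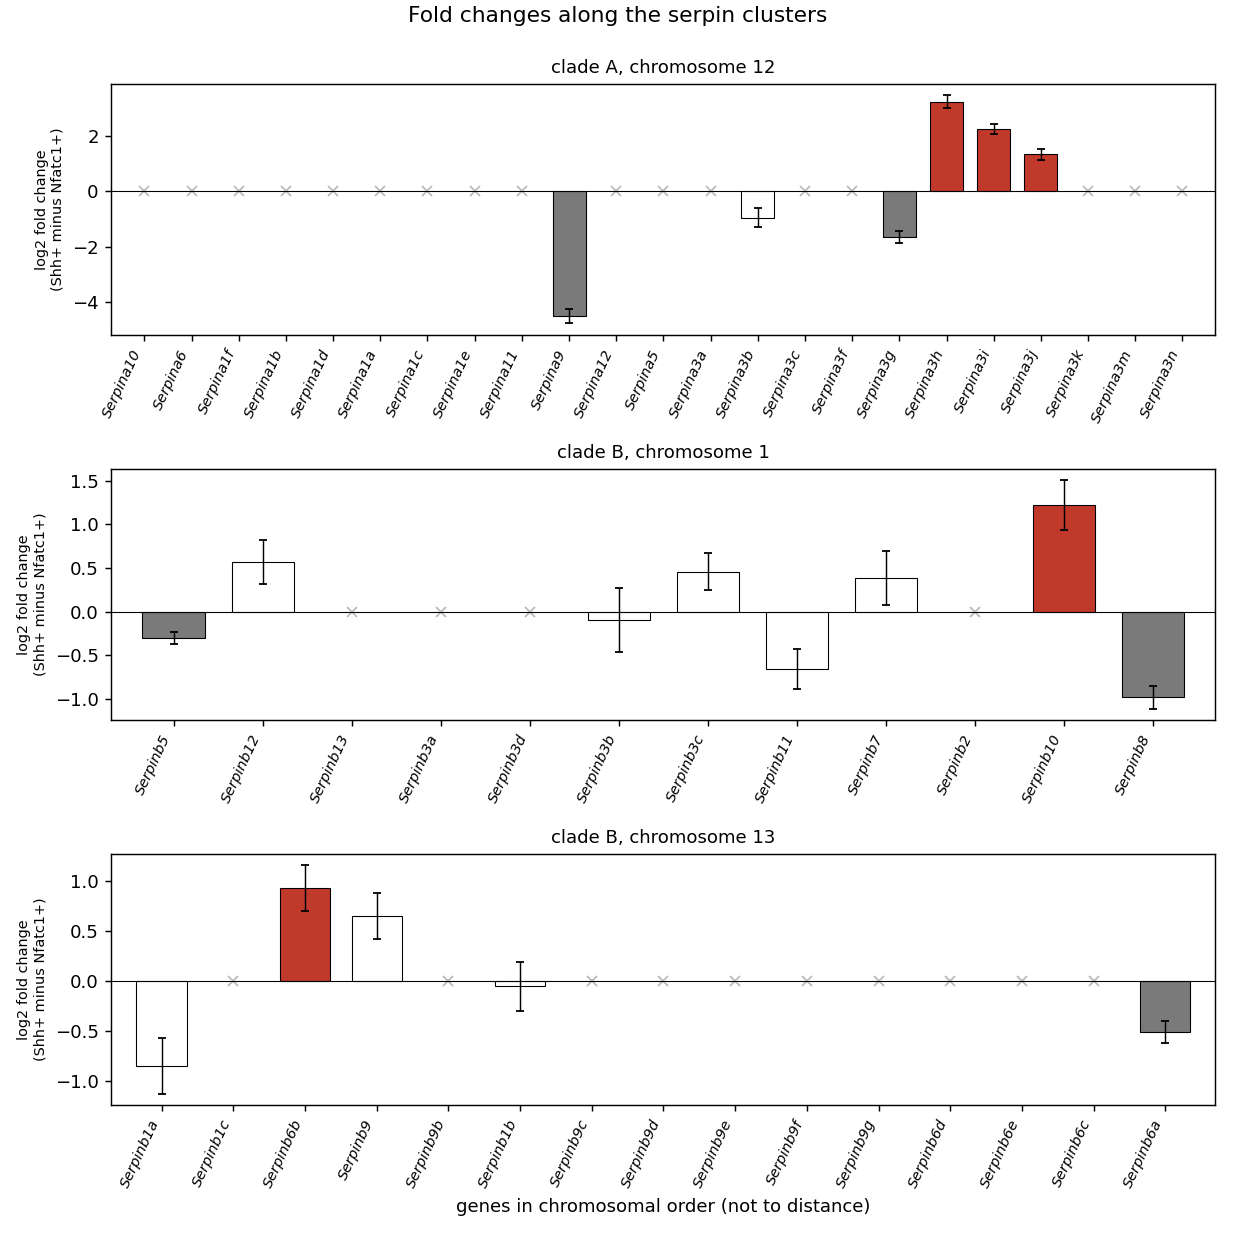
Log2 fold change of FPKM + 0.5, Shh+ minus Nfatc1+, for the serpin genes of the 3 clusters in chromosomal order, with error bars of 1 SE. Filled bars are called genes (red higher in the Shh+ group, grey higher in the Nfatc1+ group), open bars are tested genes that were not called, and crosses are genes not tested; Serpina3g points down and the adjoining Serpina3h, Serpina3i and Serpina3j point up.

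The cluster of clade A on chromosome 12 spans 103616675 to 104414334 of GRCm38 and holds 23 of the 24 members. Clade B lies in 2 clusters, 12 members on chromosome 1 from 106861175 to 107608978 and 15 on chromosome 13 from 32842092 to 34002794. On chromosome 1, 8 members were tested, of which 1 was higher in the Shh+ group and 2 in the Nfatc1+ group. On chromosome 13, 5 were tested, with 1 higher in each population. Of all tested genes, 37% were called in either direction. Neighbours with opposite calls were found in 2 places, at Serpina3g and Serpina3h and at Serpinb10 and Serpinb8, which are 29183 bases apart.

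The start regions of Serpina3g, Serpina3i and Serpina3j are shown because these nearby copies differed between the populations in opposite directions. Each runs 5′ to 3′ from 250 bases before to 50 bases after a start taken from RefSeq, which need not be the start of the whole RefSeq gene span. They lie on the plus strand of GRCm38.p6, at chr12:104235897-104236196, chr12:104262872-104263171 and chr12:104314320-104314619. Capitals mark the letters CTTTGA on either strand, the core that Tcf and Lef proteins, the DNA-binding partners of β-catenin, are known to recognise, and in Serpina3g the 6 bases that align with the core of Serpina3i.
Serpina3g: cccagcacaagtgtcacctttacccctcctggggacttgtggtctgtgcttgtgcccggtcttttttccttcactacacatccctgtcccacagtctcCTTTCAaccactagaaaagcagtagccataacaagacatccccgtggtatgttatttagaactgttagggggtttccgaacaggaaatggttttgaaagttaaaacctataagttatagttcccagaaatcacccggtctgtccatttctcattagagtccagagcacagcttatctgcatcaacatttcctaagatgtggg
Serpina3i: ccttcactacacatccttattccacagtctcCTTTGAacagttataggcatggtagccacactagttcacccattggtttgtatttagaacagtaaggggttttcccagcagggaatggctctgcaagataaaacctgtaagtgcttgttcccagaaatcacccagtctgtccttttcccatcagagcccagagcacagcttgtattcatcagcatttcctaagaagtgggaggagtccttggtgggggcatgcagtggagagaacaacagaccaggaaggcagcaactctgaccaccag
Serpina3j: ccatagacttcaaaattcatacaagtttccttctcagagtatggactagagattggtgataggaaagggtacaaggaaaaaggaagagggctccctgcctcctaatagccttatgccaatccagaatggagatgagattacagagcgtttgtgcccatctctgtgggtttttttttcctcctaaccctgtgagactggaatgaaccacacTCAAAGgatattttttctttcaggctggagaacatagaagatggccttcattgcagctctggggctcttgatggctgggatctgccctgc
The core began 219 bases before the start in Serpina3i and, on the reverse strand, 40 bases before it in Serpina3j. The start used for Serpina3j lies within 17 bases of the GENCODE gene start, but the RefSeq gene span begins 13848 bases further upstream. The start used for Serpina3i is the GENCODE gene start and lies 77 bases after the RefSeq gene start. That of Serpina3g is the RefSeq gene start and lies 98 bases before the GENCODE gene start. The annotated starts thus disagree in all 3 genes, and the distances given here depend on the start used. Over 229 aligned bases the Serpina3g and Serpina3i windows were 81.7% identical. Within the aligned 6 bases of Serpina3g, 152 bases before its start, the only difference was G5C, with the base of Serpina3i first and positions counted from 1 at the 5′ end of the core. Among the 12 called serpins with a RefSeq window (7 higher in the Shh+ group and 5 in the Nfatc1+ group), the core was found in these 2, both higher in the Shh+ group, and it was found in 16% of the 32544 windows of all genes. The AP-1 letters TGANTCA were found in Serpinb5, Serpinb8 and Serpinb10 and in 7.79% of all windows, and the letters TATAAA in none of the 12 and in 13.6% of all windows. Both motifs were also searched on both strands. Serpina3h and Serpina9 were the called members with no entry. A match of letters is a description of the window and not evidence of binding.

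Clade B, the intracellular ovalbumin-like genes, was the largest, with 27 members, 13 of them tested. Its sum was higher in the Nfatc1+ group, at 212.8 and 205.2 FPKM against 152.6 and 178.3 FPKM in the Shh+ group. Of the 13 tested, 2 were higher in the Shh+ group, 3 were higher in the Nfatc1+ group and 8 were not called. The called genes were 38.5% of those tested, near the 37% of all tested genes. The clade's median log2 fold change was −0.06. Its abundant genes were lower in the Shh+ group and its called genes that were higher there were low in level.

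Serpinb5, or maspin, an epithelial serpin that does not act as a protease inhibitor, was at 124.1 and 119 FPKM in the Nfatc1+ libraries and at 93.3 and 103.8 FPKM in the Shh+ libraries. Both Shh+ libraries lay below both Nfatc1+ libraries, yet the difference was small, 1.23-fold (log2 fold change −0.30, SE 0.07, adjusted p = 0.0147 by limma). Its call was lost without Nfatc1+ replicate 1 (adjusted p = 0.0773) and without Shh+ replicate 1 (0.0612). Serpinb6a, whose human counterpart inhibits cathepsin G, was at 65.3 and 62.8 FPKM in the Nfatc1+ libraries and at 39.7 and 50.6 FPKM in the Shh+ libraries, 1.42-fold higher in the Nfatc1+ group (log2 fold change −0.51, SE 0.11, adjusted p = 0.0115, and 0.0544 without Nfatc1+ replicate 1). Of its exon bases, 23.2% overlap 1110046J04Rik on the opposite strand, and with the strand of the library kit not given, reads from the pair cannot be told apart. The overlapping gene was at 0.151 to 1.35 FPKM, far below Serpinb6a. Without Shh+ replicate 1 the log2 fold change of Serpinb6a was −0.34.

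Serpinb8, whose human counterpart inhibits the proprotein convertase furin, was at 13.6 and 12.7 FPKM in the Nfatc1+ libraries and at 5.65 and 7.23 FPKM in the Shh+ libraries. It was 2.04-fold higher in the Nfatc1+ group, with no overlap of the groups (log2 fold change −0.98, SE 0.13, adjusted p = 0.0013 by limma). Furin itself was also higher in the Nfatc1+ group (log2 fold change −0.60). Serpinb10, known as bomapin from human blood cells, was at 1.48 and 1.92 FPKM in the Nfatc1+ libraries and at 3.26 and 6.41 FPKM in the Shh+ libraries, 2.84-fold higher in the Shh+ group (log2 fold change 1.22, SE 0.29, adjusted p = 0.0156). The Shh+ libraries differed from each other nearly 2-fold there, and the log2 fold change was 0.78 without Shh+ replicate 2 (adjusted p = 0.049). The call was lost without Nfatc1+ replicate 1 (0.0732). Of its exon bases 9.09% overlap Serpinb2, which reached at most 0.0474 FPKM. Serpinb6b, a close relative of Serpinb6a, had a mean of 0.61 ± 0.218 FPKM in the Nfatc1+ group and 1.59 ± 0.241 FPKM in the Shh+ group (SD, n = 2; log2 fold change 0.92, SE 0.23, adjusted p = 0.0198). Its call was lost without Nfatc1+ replicate 1 (0.0878) and without Shh+ replicate 2 (0.0891).

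The 8 clade B genes that were tested and not called were all low, with group means from 0.349 FPKM (Serpinb1a in the Shh+ group) to 2.72 FPKM (Serpinb12 in the Shh+ group). Serpinb1a, an inhibitor of neutrophil elastase, had a log2 fold change of −0.85 (adjusted p = 0.0521 by limma), and the call was gained without Shh+ replicate 1 (0.024). Serpinb11 was at −0.66 (0.0616). Serpinb9, the inhibitor of granzyme B, was at 0.65 (0.0658), Serpinb12 at 0.56 (0.123) and Serpinb3c, a mouse relative of the squamous cell carcinoma antigens, at 0.46 (0.141). The groups overlapped for Serpinb1b, Serpinb3b and Serpinb7, which had log2 fold changes of −0.06, −0.09 and 0.38. That these genes were not called does not show that their levels were the same. The remaining 14 members did not reach the mean asked for. Of these, 7 were at 0 in all libraries, and Serpinb6c at 0.0736 to 0.256 FPKM was the highest.

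In clade E, Serpine2 was higher in the Shh+ group. Serpine2, protease nexin 1, a secreted inhibitor of thrombin and plasminogen activators, was at 7.72 and 8.42 FPKM in the Nfatc1+ libraries and at 16.5 and 18.2 FPKM in the Shh+ libraries. It was 2.15-fold higher in the Shh+ group, and the gap between the groups was several times the spread within them (log2 fold change 1.06, SE 0.10, adjusted p = 0.000249 by limma). Serpine3 reached at most 0.224 FPKM.

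Clade I had 1 expressed gene. Serpini1, or neuroserpin, an inhibitor of tissue plasminogen activator best known from neurons, was at 7.06 FPKM in both Nfatc1+ libraries and at 2.34 and 3.02 FPKM in the Shh+ libraries, 2.63-fold higher in the Nfatc1+ group (log2 fold change −1.26, SE 0.14, adjusted p = 0.000684 by limma). Serpini2 was at 0 throughout. Markers of Merkel cells, the neuroendocrine touch receptors of the skin, moved the same way, with 8 of 10 tested higher in the Nfatc1+ group and summed levels from 65.1 to 73.5 FPKM against 24.5 to 29.8 FPKM. Their part in the levels of Serpini1 and of the other serpins higher in the Nfatc1+ group was not tested. The same holds for sebocyte markers, with 7 of 8 higher in the Nfatc1+ group and summed levels from 198.6 to 205.3 FPKM against 75.7 to 93.5 FPKM. No marker in either list was at 0 in all libraries.

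Serpinh1, the only gene of clade H, encodes HSP47, a chaperone that holds procollagen in the endoplasmic reticulum. It was the most abundant serpin in both populations. Serpinh1 was at 187.8 and 182.9 FPKM in the Nfatc1+ libraries and at 284.6 and 227.8 FPKM in the Shh+ libraries, 1.38-fold higher in the Shh+ group (log2 fold change 0.46, SE 0.10, adjusted p = 0.0129 by limma, and 0.0567 without Nfatc1+ replicate 2). Both Shh+ libraries were above both Nfatc1+ libraries, and Shh+ replicate 1 was the higher of them, without which the log2 fold change was 0.30. Among 18 other tested collagen chaperones and modifying enzymes, 5 were higher in the Shh+ group, 4 were higher in the Nfatc1+ group and 9 were not called, with a median log2 fold change of 0.08. The called genes were 50% of those 18, against 37% of all tested genes. The largest differences were Leprel1 (−1.47) and Lepre1 (−0.76), which encode prolyl 3-hydroxylases, and P4ha2 (1.27), a prolyl 4-hydroxylase subunit. Fibroblast markers summed to between 409.1 and 695.6 FPKM in the Nfatc1+ libraries and to between 637.6 and 750.8 FPKM in the Shh+ libraries, with 1 of 10 higher in each population and none at 0. These sums overlapped between the groups. Much of the Shh+ sums came from Dcn, the gene of decorin, at 40.3 and 57.7 FPKM in the Nfatc1+ libraries against 326.4 and 424.7 FPKM in the Shh+ libraries. The other 9 markers summed to 368.8 and 638 FPKM in the Nfatc1+ libraries and to 311.2 and 326.1 FPKM in the Shh+ libraries, and the median log2 fold change of the list was −0.37. Their part in the level of Serpinh1 was not tested.

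Serpinc1, antithrombin, the plasma inhibitor of thrombin made chiefly in liver, was at 0.043 and 0.0464 FPKM in the Nfatc1+ libraries and at 1.07 and 1.42 FPKM in the Shh+ libraries (log2 fold change 1.67, SE 0.25, adjusted p = 0.00218 by limma). Once scaled to the relative depth of each library, its FPKM values were whole multiples of a smallest step, to within 0.02. Taken as fragments, those multiples were 1 and 1 in the Nfatc1+ libraries and 23 and 19 in the Shh+ libraries. The ratio over the group totals, scaled to relative depth, was 26.9 (95% exact interval 7.01 to 230, which covers counting error only). The fitted log2 value depends on the number added before the logarithm, and was 3.20 with 0.1 in place of 0.5. In the GENCODE model, 59.2% of its exon bases overlap Zbtb37 on the opposite strand. With the strand of the library kit not given, reads in that overlap cannot be told apart by gene. Zbtb37 was at 2.15, 1.92, 1.84 and 2.25 FPKM in the 4 libraries, Nfatc1+ first, and was not called (adjusted p = 0.99). In a list of liver and blood markers, the liver genes Alb, Ttr, Fga, Fgb and Ahsg were listed at 0 in all 4 libraries. The others in the list were not at 0 throughout. Apoa1 was at 0.209, 0.112, 0 and 0.181 FPKM, Nfatc1+ first, and the haemoglobin gene Hba-a2 reached at most 0.0746 FPKM. The haemoglobin gene Hba-a1 was at 29.7, 61.8, 66.2 and 43.2 FPKM and was not called. The part of liver or blood RNA in the level of Serpinc1 was not tested.

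The last clades held little. Serpinf1, pigment epithelium-derived factor, had means of 3.05 ± 1.3 FPKM in the Nfatc1+ group and 1.71 ± 0.0406 FPKM in the Shh+ group (SD, n = 2), with a log2 fold change of −0.63 that was not called (adjusted p = 0.096 by limma, and 0.0154 without Nfatc1+ replicate 1). Serping1, the C1 inhibitor, had means of 1.2 ± 0.444 and 0.533 ± 0.116 FPKM (SD, n = 2) and a log2 fold change of −0.69 that was not called (0.077, and 0.0483 without Nfatc1+ replicate 1). Serpinf2, antiplasmin, reached at most 0.147 FPKM and Serpind1, heparin cofactor, at most 0.0458 FPKM, and neither was tested.

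The proteases and cofactors on which serpins are known to act were set against the 37% of all tested genes that were called in either direction, and the lists are described by counts only. In plasminogen activation 50% of the tested genes were called, and the shares for coagulation and granule proteases, 33.3% each, were below the background, while in the cathepsin, serine protease, kallikrein and other inhibitor lists they ran from 54.5% to 83.3%. Of 8 tested genes of plasminogen activation, 1 was higher in the Shh+ group and 3 were higher in the Nfatc1+ group. The plasminogen receptor gene Plgrkt was at a mean of 19.5 FPKM in the Nfatc1+ group and 122.1 FPKM in the Shh+ group (log2 fold change 2.62), whereas the activators Plat (−1.09) and Plau (−0.60), the targets of Serpine2 and Serpini1, were lower in the Shh+ group. Plat was at 6.06 and 5.09 FPKM in the Nfatc1+ libraries and at 2.43 and 2.27 FPKM in the Shh+ libraries. Of 6 tested genes of thrombin and coagulation, the protease-activated receptor F2rl1 (0.42) was higher in the Shh+ group and the protein S gene Pros1 (−0.29) was higher in the Nfatc1+ group, and F2, the gene of thrombin itself, was listed at 0 in all libraries.

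Of the 16 tested epithelial serine proteases and Kunitz inhibitors, 5 were higher in the Shh+ group and 7 in the Nfatc1+ group. Tmprss4 (−2.03), a membrane-bound protease, and Mst1 (−1.21), a protease-like growth factor, were lower in the Shh+ group and the protease Prss23 (1.23) was higher. The matriptase gene St14 (0.56) and the genes of its inhibitors Spint1 (0.78) and Spint2 (0.48) were all higher in the Shh+ group. Of 6 tested kallikreins, the serine proteases that act in the shedding of the outer skin, 4 were higher in the Nfatc1+ group and 1 in the Shh+ group, with a median log2 fold change of −0.93. Klk5 (−1.76) and Klk7 (−1.02) went one way and Klk13 (1.91) the other.

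Of 11 tested cathepsins and legumain, 2 were higher in the Shh+ group and 4 in the Nfatc1+ group, with Ctsc (−1.45), Ctsb (−1.10) and Ctsf (−0.82) differing most. Ctsb, whose product Serpina3g has been described to inhibit, was at 104.7 and 99.8 FPKM in the Nfatc1+ libraries and at 48.1 and 47 FPKM in the Shh+ libraries, and so was higher in the same population as Serpina3g. Of 6 tested granule proteases, 2 mast cell genes, Cma1 (−1.03) and Cpa3 (−0.62), were higher in the Nfatc1+ group, none was higher in the Shh+ group and 4 were not called. The granzyme B gene Gzmb was at 0 in all libraries. Of 15 tested inhibitors of other families, 2 were higher in the Shh+ group and 7 in the Nfatc1+ group, led by the stefins Stfa1 (−4.41) and Stfa3 (−1.85), which inhibit cathepsins, and the metalloproteinase inhibitor Timp3 (−2.93). All of the genes given here with a log2 fold change in brackets were called at an adjusted p under 0.05 by limma. The call of Pros1 was lost when any 1 library was left out (adjusted p from 0.0937 to 0.157). That of F2rl1 was lost without either Nfatc1+ library or without Shh+ replicate 2 (0.0562 to 0.0696), that of Cpa3 without Nfatc1+ replicate 2 (0.136) or Shh+ replicate 1 (0.11), and that of Klk7 without Nfatc1+ replicate 2 (0.0583).

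**Figure D4:**
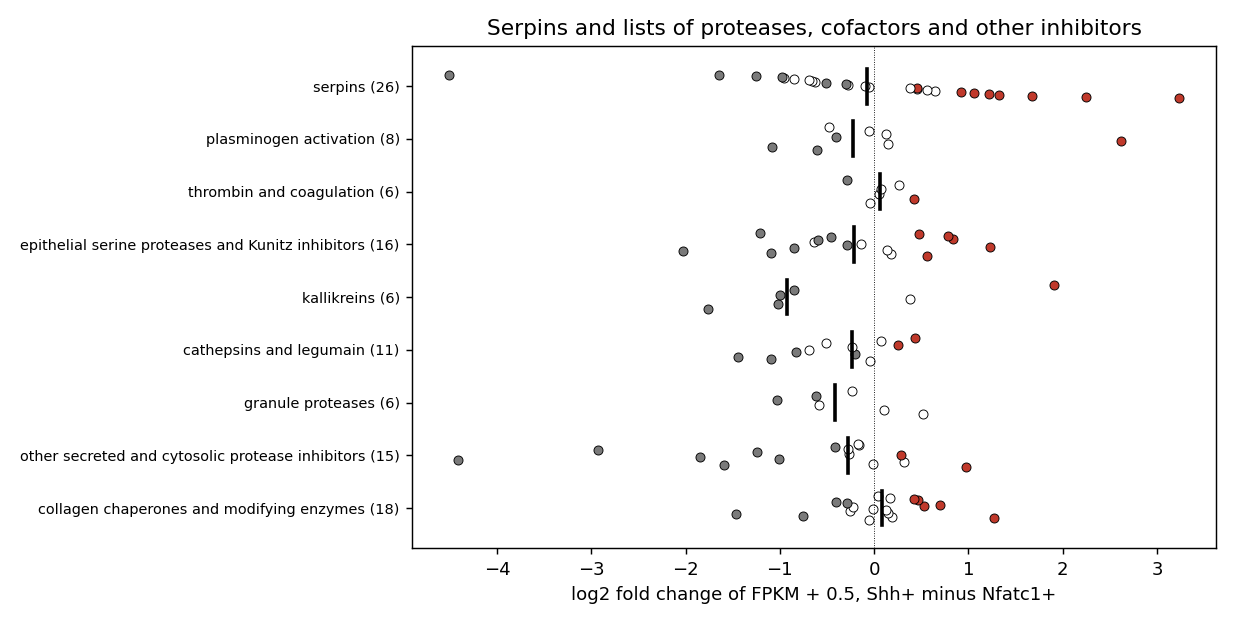
Log2 fold change of FPKM + 0.5, Shh+ minus Nfatc1+, of each tested serpin and of each tested gene in 8 lists of proteases, cofactors and other inhibitors, with the number tested in brackets. Red points were higher in the Shh+ group, grey points were higher in the Nfatc1+ group, open points were not called and black lines are medians; every list except the granule proteases has called genes on both sides.

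Genes of the immediate early and stress list, which respond to the dissociation of tissue, also differed between the groups, with 17 of 20 tested higher in the Nfatc1+ group and 1 in the Shh+ group. Markers of differentiated epidermis, which was taken off in the preparation of the Shh+ libraries only, were higher in the Shh+ group in 6 of 9 tested genes and higher in the Nfatc1+ group in 2, with summed levels from 887 to 937.8 FPKM in the Nfatc1+ group and from 1040 to 1244 FPKM in the Shh+ group. Melanocyte markers summed to between 32.3 and 67.3 FPKM and between 8.2 and 46.1 FPKM, and endothelial markers to at most 6.43 FPKM in any library. The part of these in the serpin levels was not tested. In sorted pools such as these, fewer cells of a kind and less RNA per cell cannot be told apart.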

How the data were processed

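RNA was measured by paired-end sequencing in 2 Nfatc1+ and 2 Shh+ libraries. The authors mapped reads to GRCm38/mm10 (TopHat 2.0.13) and made the deposited FPKM values (Cufflinks 2.2.1). HTSeq is also named in the submitters' notes, with no role. The values carry no counts and the absolute depth is unknown. Relative depth, read from the steps between low values, was 1, 0.927, 0.927 and 0.575 (Nfatc1+ replicates first), so precision at low levels is lowest in Shh+ replicate 2. Genes averaging 0.5 FPKM or more over the libraries were fitted with limma 3.58.1 in R 4.3.3, with an intensity trend, on log2(FPKM + 0.5). Of the 26 tested members, 25 are named and 1, which was not called, is not reported here; values in each library are given for members called at an absolute log2 fold change of at least 1 or with a mean of at least 10 FPKM, and lists give their 3 largest called genes, with St14, Spint1, Spint2 and Furin added after their values were seen. The script was tested on simulated data. Members and lists were chosen with earlier results of these data known. Overlaps, shared 100-base stretches and loop stretches used GENCODE M21. The loop was located by its conserved hinge codons, and start regions came from RefSeq (GRCm38.p6). Alternatives were other pseudocounts, filters, scaling, no trend, a replicate block, the study's threshold and leaving out each library. Ratios of means without each library, the fibroblast sum without Dcn and the 2-fold count by ratio were added after seeing the data.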

Additional observations from a re-analysis of the deposited data

How the results depend on the processing

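The counts of called genes held within 1.5 times of their values under other pseudocounts, filters on low values, upper-quartile scaling, no trend and a replicate block. Under the threshold in the form of the study's methods (unadjusted p under 0.01 and an absolute log2 fold change above 1), 600 genes were higher in the Shh+ group and 734 in the Nfatc1+ group, with 6 and 3 serpins, and the fold limit removed Serpinb5, Serpinb6a, Serpinb6b, Serpinb8 and Serpinh1. Leaving out 1 library gave 1529 to 1741 genes higher in the Shh+ group (1529 without Nfatc1+ replicate 2) and 1656 to 1975 higher in the Nfatc1+ group, with 6 to 8 and 6 to 7 serpins; the lone library of a group was then assumed to vary like the others. Of 303 single-gene values for the 26 serpins, 277 stayed on their side of the threshold, and no called serpin changed direction. Serpina9, Serpina3g, Serpina3h, Serpina3i, Serpina3j, Serpinc1, Serpine2 and Serpini1 were called in every alternative in which they were tested. Without the trend, Serpinb5, Serpinb6a and Serpinh1 lost their calls (adjusted p = 0.0679, 0.0515 and 0.0592) and Serpinb1a, Serpinb3c and Serpinb9 gained one (0.0488, 0.0344 and 0.0134). Without a filter Serpinb10 lost its call (0.0527) and Serpinb9 gained one (0.0332), and Serpina11, tested only there, was called higher in the Nfatc1+ group. Serpina3b was called without Nfatc1+ replicate 2 (0.0454). The causes were not tested. Replicate numbers are shared between the groups, but no label says that they mark a common origin, and the differences between replicates 1 and 2 correlated at 0.11 across tested genes. With a replicate block, 2424 and 2523 genes and 8 and 8 serpins were called, with Serpinb1a (0.0429) and Serpinb11 (0.0402) added. With 2 libraries a group, differences in genes near 1 FPKM are the least certain.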
